A study of Mus musculus with 9 samples.

Results

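Axon guidance ligands and receptors were followed across 9 Illumina mouse bead arrays of primary glia. The set was chosen by gene symbol: the semaphorins, plexins, neuropilins, ephrins, Eph receptors, slits, robos and Unc5 receptors, together with Ntn1, Ntn4, Dcc and Neo1. It held 89 of the 24613 probes on the array, for 68 of its 15967 named genes. Of these probes 48, for 41 genes, passed the filter on dim signal (a detection p-value below 0.01 on at least 3 of the 9 arrays), as did 13972 probes of the whole array. The symbol rule also took in Slitrk2, Slitrk3, Slitrk4, Slitrk6, Unc50 and Unc5cl, which share a name stem but are not guidance ligands or receptors, and these 6 genes stay in all counts below. Of them 3 (Slitrk2, Slitrk4 and Slitrk6) had a kept probe, and none of these passed the test in any comparison.

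The glia were grown to confluence in medium with horse serum from pups at postnatal days 1 to 3, after the meninges had been stripped off. SOD1-G93A glia (strain label B6SJL-Tg(SOD1*G93A)2Gur/J) carried a human superoxide dismutase 1 transgene with the G93A mutation, which causes amyotrophic lateral sclerosis. SOD1-WT glia (B6SJL-Tg(SOD1)2Gur/J) carried the normal human transgene, and nontransgenic glia (B6SJL 2Gur/J) carried none. Each group had 3 biological replicates. As background, these transgenes run from the human gene's own promoter and are therefore not limited to one cell type. No label states that replicates are of separate litters, so p-values measure the spread between these samples, which may be technical. The title of the series names genes behind the toxicity of SOD1-G93A glia as its question, and the guidance molecules matter to it because several of them act on motor axons.

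Axon guidance molecules steer growing axons and also shape vessels, meninges and glial borders. Secreted class 3 semaphorins repel axons through a neuropilin that binds the ligand and a plexin that signals. Slits repel through robos, netrins attract through Dcc and neogenin and repel through Unc5 receptors, and ephrins act on Eph receptors where cells touch. In the nervous system glia and meningeal cells are sources of several of these repellents, Sema3a among them.

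The 5 guidance genes that passed the test with a change of at least 1.5-fold between SOD1-G93A and nontransgenic glia were Ntn4, Plxnb3, Plxna2, Sema3a and Unc5c. Their promoters are shown because these are the members the mutant comparison turns on. Each sequence runs 5′ to 3′ over 300 bases around the gene's start (RefSeq, GRCm38.p6), with capitals marking the GC box GGGCGG on either strand. The windows are chr10:93640799-93641098 for Ntn4, chrX:73756853-73757152 for Plxnb3, chr1:194619579-194619878 for Plxna2, chr5:13396534-13396833 for Sema3a and chr3:141465314-141465613 for Unc5c, all on the + strand.
Ntn4: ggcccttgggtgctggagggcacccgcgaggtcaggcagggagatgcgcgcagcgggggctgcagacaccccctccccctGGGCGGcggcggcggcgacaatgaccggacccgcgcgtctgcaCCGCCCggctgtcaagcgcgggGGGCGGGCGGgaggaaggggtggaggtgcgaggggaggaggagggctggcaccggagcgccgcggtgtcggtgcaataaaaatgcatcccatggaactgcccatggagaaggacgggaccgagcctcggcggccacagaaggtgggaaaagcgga
Plxnb3: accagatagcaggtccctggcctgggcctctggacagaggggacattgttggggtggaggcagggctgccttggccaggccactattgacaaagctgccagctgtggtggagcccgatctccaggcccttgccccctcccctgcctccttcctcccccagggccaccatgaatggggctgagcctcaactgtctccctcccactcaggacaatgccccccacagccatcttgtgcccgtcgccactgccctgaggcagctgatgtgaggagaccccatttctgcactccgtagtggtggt
Plxna2: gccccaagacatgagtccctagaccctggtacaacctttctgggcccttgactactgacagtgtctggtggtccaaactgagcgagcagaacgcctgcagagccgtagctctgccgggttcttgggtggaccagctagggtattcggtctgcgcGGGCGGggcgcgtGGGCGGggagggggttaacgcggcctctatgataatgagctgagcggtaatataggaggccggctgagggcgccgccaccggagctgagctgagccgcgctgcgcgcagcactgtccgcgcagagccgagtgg
Sema3a: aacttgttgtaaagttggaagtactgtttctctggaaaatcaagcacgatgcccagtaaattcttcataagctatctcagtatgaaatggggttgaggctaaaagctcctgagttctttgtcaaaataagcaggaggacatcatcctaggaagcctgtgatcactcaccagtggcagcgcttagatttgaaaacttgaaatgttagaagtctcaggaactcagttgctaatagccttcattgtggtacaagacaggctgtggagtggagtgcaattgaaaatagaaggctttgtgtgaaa
Unc5c: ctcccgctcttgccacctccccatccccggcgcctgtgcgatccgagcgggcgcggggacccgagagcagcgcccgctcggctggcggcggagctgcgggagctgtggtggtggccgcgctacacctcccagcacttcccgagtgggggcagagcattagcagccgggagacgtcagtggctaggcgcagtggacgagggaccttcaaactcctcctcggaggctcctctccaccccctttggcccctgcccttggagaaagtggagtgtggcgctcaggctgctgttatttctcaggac

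The GC box occurred 4 times in the Ntn4 window, with 2 of these copies overlapping, 2 times in that of Plxna2 and not in the other 3 windows. Among 32851 mouse promoter windows of the same length, 35.7% held it. Neither TATAAA (in 13.6% of all windows) nor CCAAT (in 37.4%) was found in any of the 5, on either strand. The windows differed in CG pairs, with 31 in Ntn4, 25 in Plxna2 and 24 in Unc5c, against 4 in Plxnb3 and 2 in Sema3a and a median of 7 over all windows. A letter match describes the window and says nothing of what binds there. A promoter sequence was found for 57 of the 68 genes.

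The arrays were alike in yield. They detected 13107 to 13618 probes each, and 42 to 48 of the 89 guidance probes. SOD1-WT replicate 3 stood apart in mean raw intensity, at 279.6 units against 211.3 to 235.7 on the other 8 arrays, and in the standard error over beads, whose median was 6.84% of the intensity there and 5.08% to 5.23% elsewhere. Without it, 8 guidance probes were higher and 7 lower in SOD1-G93A glia than in SOD1-WT glia, and 8 were higher and 14 lower in SOD1-WT than in nontransgenic glia. Arrays of one group correlated at 0.988 to 0.995 over kept probes, and arrays of different groups at 0.954 to 0.985. Gfap, a defining astrocyte gene, was detected on all 9 arrays. The Y-linked gene Kdm5d was detected on the 3 SOD1-WT arrays and on none of the other 6, at least 5.04-fold higher in SOD1-WT than in SOD1-G93A glia. Of 5 sex-linked genes looked for, 3 were on the array and only Kdm5d had a kept probe, so this reading rests on 1 probe. Genotype and a possible difference in the sex of the pups cannot be told apart in either comparison with SOD1-WT. The mouse Sod1 probe, at 11.05 to 11.21 in SOD1-G93A, 11.24 to 11.32 in SOD1-WT and 10.81 to 11.14 in nontransgenic glia (log2 intensity), does not check the human transgene.

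Markers of other cells moved with the groups and are given here because several guidance genes are also made by those cells. The summed intensity of 11 fibroblast and meningeal markers was 20716 to 21793 in SOD1-G93A, 3378 to 4687 in SOD1-WT and 26082 to 27876 in nontransgenic glia, and Foxc2 among them was not detected on any SOD1-WT array. All 11 were higher in SOD1-G93A glia than in SOD1-WT glia and all 11 were lower in SOD1-WT than in nontransgenic glia, while between SOD1-G93A and nontransgenic glia 2 were higher, 4 lower and 5 did not pass the test. For 5 endothelial and mural markers the sums were 520 to 564, 318 to 344 and 747 to 824 in SOD1-G93A, SOD1-WT and nontransgenic glia. Of these 5, 2 were not detected on any SOD1-G93A array, 1 (Cdh5) on any SOD1-WT array and 0 were missed throughout nontransgenic glia. Between SOD1-G93A and nontransgenic glia 0 were higher and 2 lower. In SOD1-G93A against SOD1-WT glia 2 were higher and 1 lower, and in SOD1-WT against nontransgenic glia 1 was higher and 2 lower. For 6 ependymal and choroid plexus markers the sums were 1856 to 2414, 3826 to 3952 and 1028 to 1108 in SOD1-G93A, SOD1-WT and nontransgenic glia. For 5 hindbrain and spinal identity genes they were 256 to 265, 327 to 346 and 180 to 190, in the same order of groups. Of the 6 ependymal markers, 4 were higher and 1 lower in each transgenic group than in nontransgenic glia. In SOD1-G93A against SOD1-WT glia 1 was higher and 3 lower. Of the 5 hindbrain and spinal genes, 2 were higher and 0 lower in each transgenic group than in nontransgenic glia. Between SOD1-G93A and SOD1-WT glia 1 was higher and 1 lower. Sums of 9 astrocyte markers were 21023 to 22726, 22859 to 24932 and 18472 to 19729 in SOD1-G93A, SOD1-WT and nontransgenic glia. Of these 9, 2 were higher and 2 lower in SOD1-G93A than in nontransgenic glia. In SOD1-G93A against SOD1-WT glia 1 was higher and none lower. In SOD1-WT against nontransgenic glia 4 were higher and 1 lower. The median log2 change of the 9 was 0.01 for SOD1-G93A and 0.19 for SOD1-WT, each against nontransgenic glia. S100b fell by -0.50 ± 0.14 (SE) and Slc1a2 was at least 1.14-fold lower in SOD1-G93A than in nontransgenic glia (limma's adjusted p = 0.0377 and 0.0382). Glul fell by -0.78 ± 0.21 between nontransgenic and SOD1-WT glia (adjusted p = 0.0123). Gfap was higher than in nontransgenic glia by 0.76 ± 0.15 in SOD1-G93A and by 0.98 ± 0.15 in SOD1-WT glia (log2 change ± SE, limma's adjusted p = 0.00441 and 0.00023), and the astrocyte water channel Aqp4 by 0.73 ± 0.10 and 0.59 ± 0.10 (adjusted p = 0.000356 and 0.000767). Sums of 9 oligodendrocyte, 7 microglial and 5 neuronal markers were 6874 to 7034, 5105 to 6130 and 1078 to 1175 in SOD1-G93A, 5574 to 5826, 5311 to 6614 and 969 to 1119 in SOD1-WT, and 4713 to 6187, 4899 to 6197 and 1148 to 1255 in nontransgenic glia. In the same order of lists, 2, 1 and 0 were higher and 2, 1 and 0 lower in SOD1-G93A than in nontransgenic glia. In SOD1-G93A against SOD1-WT glia 2, 0 and 1 were higher and 0, 1 and 0 lower. In SOD1-WT against nontransgenic glia 1, 1 and 0 were higher and 2, 0 and 2 lower. In a bulk culture fewer cells of a type and less RNA per cell cannot be told apart. The part of these markers in the results below was not tested.

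**Figure D1:**
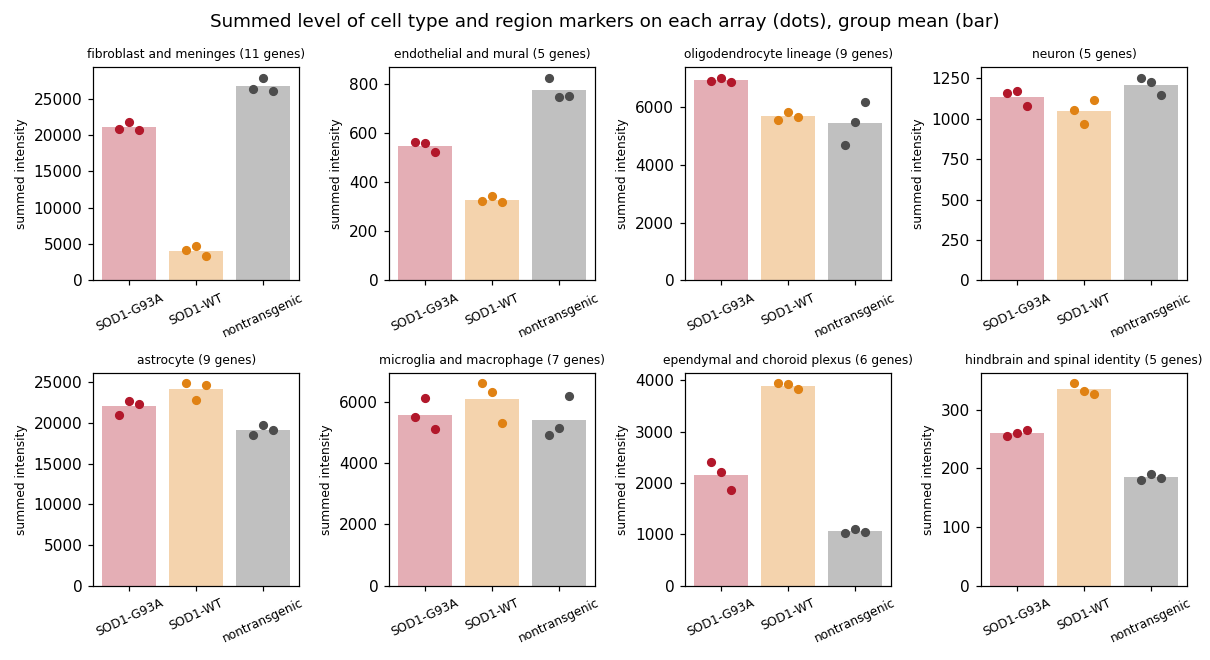
Summed intensity (linear scale, y axis) of 8 lists of cell type and region markers on each array, in SOD1-G93A, SOD1-WT and nontransgenic glia. Dots are arrays and bars are group means. The fibroblast and meningeal sum is between 3378 and 4687 on the SOD1-WT arrays and at least 20716 on the other 6.

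Of the 68 genes 19 were not detected on any array: Dcc, Efna2, Efnb3, Epha1, Epha6, Epha7, Epha8, Ephb3, Ntn1, Plxna1, Sema4c, Sema4f, Sema7a, Slit1, Slitrk3, Unc50, Unc5a, Unc5cl and Unc5d. The attractant netrin Ntn1 and its receptor Dcc were both among them, as was the repellent Slit1. A further 8 genes were detected on some array but had no kept probe, namely Plxna3, Plxna4 and Sema3d on 2 arrays each and Epha10, Epha3, Nrp2, Sema6c and Slit3 on 1 array each. Absence of detection says that the signal was not above background on this array, not that the gene was silent. Of the 48 kept probes 37 were detected on all 9 arrays, and 7 genes were measured by several kept probes. A kept probe's level is given as its normalised log2 intensity, on which a difference of 1 is a doubling.

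**Figure D2:**
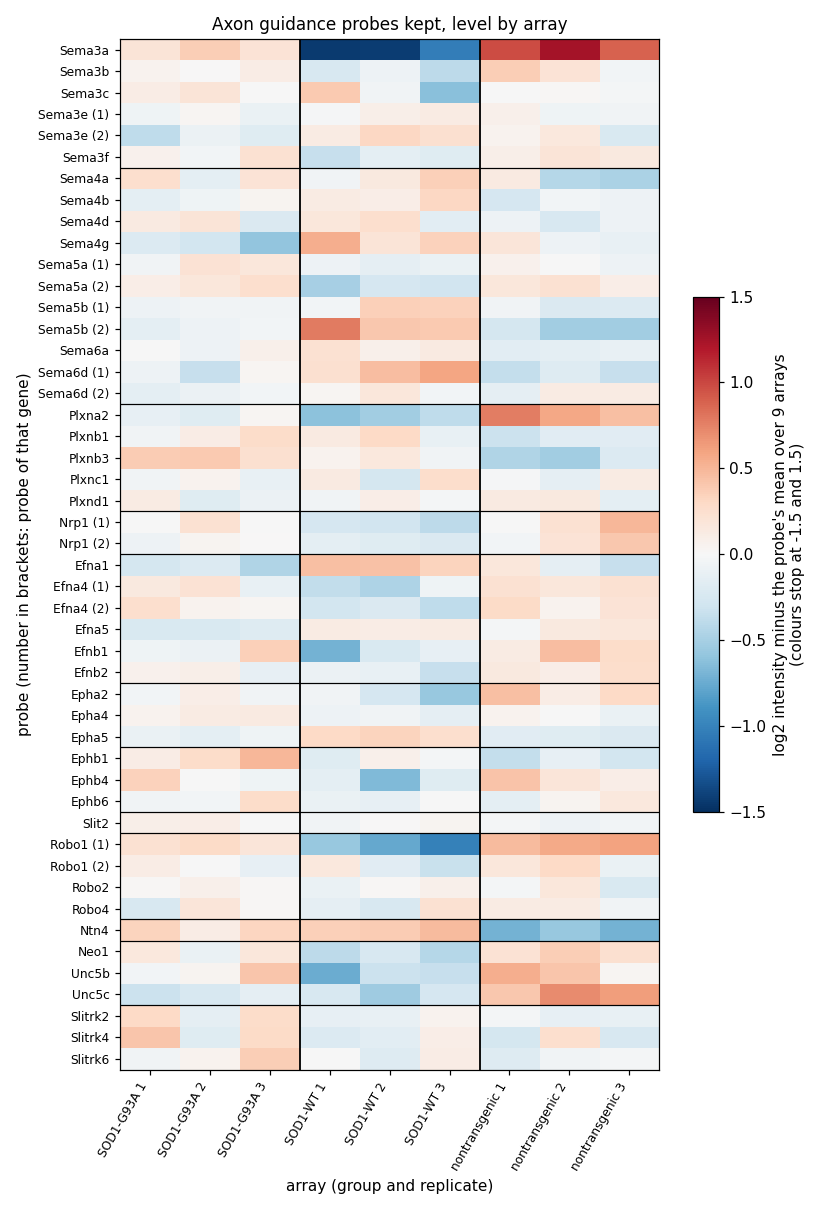
Level of the 48 kept guidance probes (rows, grouped by family) on the 9 arrays (columns, SOD1-G93A, SOD1-WT and nontransgenic), as log2 intensity minus the mean of that probe over all 9 arrays. Red is above and blue below the probe's mean. Sema3a, Robo1 (its brighter probe, number 1), Plxna2 and Unc5c have the deepest contrast between nontransgenic and SOD1-WT arrays among the probes that were lower in SOD1-WT, and Ntn4 among those that were higher.

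Between SOD1-G93A and nontransgenic glia, 3 guidance genes rose and 4 fell (limma's moderated test, Benjamini-Hochberg adjusted over 13972 probes, threshold 0.05). The netrin Ntn4, the plexin Plxnb3 and the Eph receptor Ephb1 were higher, and the repellent Sema3a, the plexin Plxna2, the netrin receptor Unc5c and the ephrin Efna5 were lower. This is 7 of 48 probes, or 14.6%, against 10.6% of all probes tested. By direction the higher calls were 6.25% of guidance probes against 5.11% of all, and the lower calls 8.33% against 5.53%. The shares were thus near the background of the array. The groups did not overlap for any of the 7 probes, 5 changed by over 1.5-fold and none by over 2-fold. Probes that pass the test tend to separate the groups. These counts were not made over all probes and add no support to the calls. By gene, 34 of 41 did not pass the test, and the median change of the kept guidance probes was -0.04 against 0.01 for all probes.

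Sema3a, the class 3 semaphorin best known for collapsing growth cones, stood at 6.27, 6.45 and 6.28 on the SOD1-G93A arrays, 4.64, 4.66 and 5.04 on the SOD1-WT arrays and 7.06, 7.33 and 6.96 on the nontransgenic arrays. No 2 groups overlapped, with nontransgenic glia highest and SOD1-WT glia lowest. It was lower by a log2 change of -0.78 ± 0.13 (SE) in SOD1-G93A than in nontransgenic glia (adjusted p = 0.0012). It was higher by 1.56 ± 0.13 in SOD1-G93A glia than in SOD1-WT glia (adjusted p = 1.17e-06) and lower by -2.34 ± 0.13 in SOD1-WT than in nontransgenic glia (adjusted p = 1.08e-08). The SOD1-G93A arrays thus lay between the other groups, as the fibroblast and meningeal marker sum also did, and the part of those markers in the Sema3a result was not tested.

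Its signalling partner Plxna2, which also serves as a receptor for membrane semaphorins, followed the same order of groups. It measured 7.53, 7.47 and 7.68 in SOD1-G93A, 7.04, 7.13 and 7.27 in SOD1-WT and 8.42, 8.23 and 8.11 in nontransgenic glia, with no overlap. The change was -0.69 ± 0.11 between SOD1-G93A and nontransgenic glia (adjusted p = 0.000855) and -1.11 ± 0.11 between SOD1-WT and nontransgenic glia (adjusted p = 3.8e-06). It was 0.41 ± 0.11 between SOD1-G93A and SOD1-WT glia (adjusted p = 0.021). That last call was lost on leaving out SOD1-G93A replicate 1 or 3 (adjusted p = 0.0529 and 0.0944), and also SOD1-WT replicate 1 or 2 (0.0799 and 0.0599).

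Unc5c, a netrin receptor that mediates repulsion, measured 6.08, 6.16 and 6.27 in SOD1-G93A, 6.16, 5.88 and 6.16 in SOD1-WT and 6.81, 7.11 and 7.04 in nontransgenic glia. The arrays of both transgenic groups lay below every nontransgenic array and overlapped each other. It was lower by -0.81 ± 0.12 in SOD1-G93A than in nontransgenic glia (adjusted p = 0.000323) and by -0.92 ± 0.12 in SOD1-WT than in nontransgenic glia (adjusted p = 3.38e-05), and the difference between SOD1-G93A and SOD1-WT glia was 0.11 ± 0.12 (adjusted p = 0.622).

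Ntn4, a netrin built like a laminin chain and found in basement membranes, ran the other way. It measured 7.37, 7.16 and 7.36 in SOD1-G93A, 7.40, 7.43 and 7.51 in SOD1-WT and 6.33, 6.48 and 6.33 in nontransgenic glia. Every array of the transgenic groups lay above every nontransgenic array. It was higher by 0.91 ± 0.10 in SOD1-G93A than in nontransgenic glia (adjusted p = 2.84e-05) and by 1.06 ± 0.10 in SOD1-WT than in nontransgenic glia (adjusted p = 1.81e-06), with -0.15 ± 0.10 between SOD1-G93A and SOD1-WT glia (adjusted p = 0.381).

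Plxnb3, a plexin that binds Sema5a, measured 6.78, 6.79 and 6.64 in SOD1-G93A, 6.45, 6.55 and 6.34 in SOD1-WT and 5.94, 5.87 and 6.19 in nontransgenic glia. SOD1-G93A glia were highest on all 3 arrays, and no 2 groups overlapped. The rise was 0.73 ± 0.11 in SOD1-G93A over nontransgenic glia (adjusted p = 0.000473) and 0.44 ± 0.11 in SOD1-WT over nontransgenic glia (adjusted p = 0.00771), and the value between SOD1-G93A and SOD1-WT glia was 0.29 ± 0.11 (adjusted p = 0.0976). Ephb1, a receptor for the membrane-spanning ephrins, measured 6.29, 6.45 and 6.67 in SOD1-G93A, 6.0, 6.25 and 6.15 in SOD1-WT and 5.81, 6.05 and 5.90 in nontransgenic glia. Its SOD1-G93A arrays lay above all others, while the SOD1-WT and nontransgenic arrays overlapped. It was higher by 0.55 ± 0.12 in SOD1-G93A than in nontransgenic glia (adjusted p = 0.00781), with 0.34 ± 0.12 between SOD1-G93A and SOD1-WT glia (adjusted p = 0.0748) and 0.21 ± 0.12 between SOD1-WT and nontransgenic glia (adjusted p = 0.23).

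Efna5, a lipid-anchored ephrin that repels axons bearing EphA receptors, measured 8.42, 8.41 and 8.45 in SOD1-G93A, 8.77, 8.76 and 8.77 in SOD1-WT and 8.61, 8.79 and 8.81 in nontransgenic glia. The SOD1-G93A arrays were the lowest 3 of the 9. The changes were small, at -0.31 ± 0.09 against nontransgenic glia (adjusted p = 0.0448) and -0.34 ± 0.09 against SOD1-WT glia (adjusted p = 0.0227), with 0.03 ± 0.09 between SOD1-WT and nontransgenic glia (adjusted p = 0.876). Neither call was firm. The call against nontransgenic glia was lost without SOD1-G93A replicate 1, 2 or 3 (adjusted p = 0.121, 0.127 and 0.103), SOD1-WT replicate 1 or 2 (0.0507 and 0.0582) or nontransgenic replicate 2 or 3 (0.161 and 0.142). The call against SOD1-WT glia was lost without SOD1-G93A replicate 1, 2 or 3 (0.0712, 0.073 and 0.0571) or SOD1-WT replicate 1 or 2 (0.0536 and 0.0543). A second Efna5 probe did not pass the filter.

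**Figure D3:**
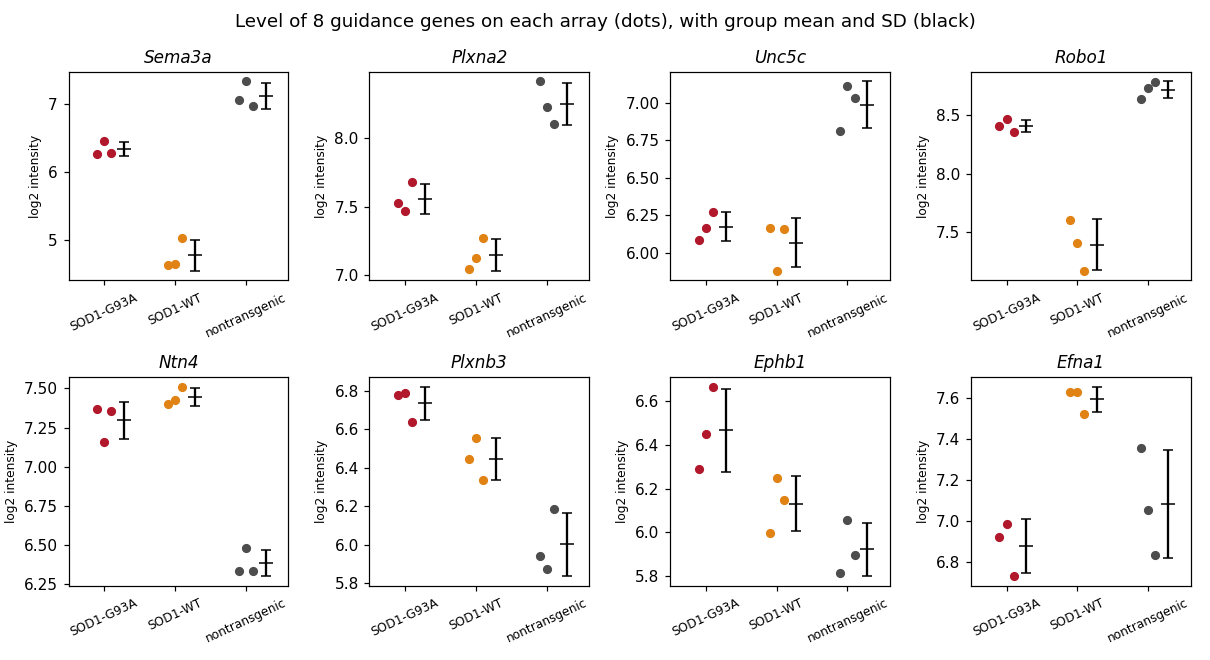
Normalised log2 intensity (y axis, each panel on its own scale, not starting at 0) of 8 guidance genes on each array of SOD1-G93A, SOD1-WT and nontransgenic glia. Dots are arrays, and the black mark is the group mean with its SD (n = 3). Sema3a, Plxna2 and Robo1 are lowest in SOD1-WT and highest in nontransgenic glia, Unc5c and Ntn4 separate both transgenic groups from nontransgenic glia, and Plxnb3 and Ephb1 are highest in SOD1-G93A glia.

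The other repellents gave values that did not pass the test between SOD1-G93A and nontransgenic glia. Slit2, the secreted repellent read by robos, measured 8.27, 8.28 and 8.18 in SOD1-G93A, 8.13, 8.19 and 8.22 in SOD1-WT and 8.15, 8.11 and 8.14 in nontransgenic glia. Its 3 differences were 0.11 ± 0.09, 0.07 ± 0.09 and 0.05 ± 0.09 for SOD1-G93A against nontransgenic glia, SOD1-G93A against SOD1-WT glia and SOD1-WT against nontransgenic glia (adjusted p = 0.541, 0.711 and 0.76). All 9 arrays thus lay close together. Sema3f, which repels through Nrp2, measured 7.66, 7.54 and 7.82 in SOD1-G93A, 7.24, 7.44 and 7.41 in SOD1-WT and 7.67, 7.78 and 7.73 in nontransgenic glia. It was lower by -0.37 ± 0.10 in SOD1-WT than in nontransgenic glia (adjusted p = 0.0182), a call lost without SOD1-WT replicate 1 (0.071) or nontransgenic replicate 2 (0.069), and its values for SOD1-G93A were -0.05 ± 0.10 against nontransgenic and 0.31 ± 0.10 against SOD1-WT glia (adjusted p = 0.841 and 0.0605).

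Sema3e, which binds Plxnd1 without a neuropilin, was measured by a pair of probes that differed in their calls. The brighter probe stood at 6.18, 6.48 and 6.38 in SOD1-G93A, 6.69, 6.87 and 6.81 in SOD1-WT and 6.62, 6.72 and 6.33 in nontransgenic glia. The gene was lower by -0.44 ± 0.12 in SOD1-G93A glia than in SOD1-WT glia (adjusted p = 0.0232), a call lost without SOD1-G93A replicate 1 or 3 (0.114 and 0.0561) or SOD1-WT replicate 2 (0.0785). The groups of that call did not overlap. Its dimmer probe, at 4.54, 4.64 and 4.51 in SOD1-G93A, 4.59, 4.70 and 4.74 in SOD1-WT and 4.68, 4.54 and 4.56 in nontransgenic glia, was detected on all SOD1-WT arrays but on 1 array of each other group, and passed the test in no comparison.

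Among the ephrins and their receptors, Efnb1, a membrane-spanning ephrin, measured 7.63, 7.61 and 8.05 in SOD1-G93A, 6.98, 7.46 and 7.57 in SOD1-WT and 7.82, 8.16 and 7.96 in nontransgenic glia. The gene was lower by -0.64 ± 0.16 in SOD1-WT than in nontransgenic glia (adjusted p = 0.00875), with -0.22 ± 0.16 and 0.42 ± 0.16 for SOD1-G93A against nontransgenic and SOD1-WT glia (adjusted p = 0.496 and 0.102). The last of these passed the test without SOD1-WT replicate 3 (adjusted p = 0.0468). Epha4, a receptor for both classes of ephrin that motor neurons carry, measured 6.19, 6.27 and 6.27 in SOD1-G93A, 6.07, 6.09 and 6.0 in SOD1-WT and 6.20, 6.14 and 6.05 in nontransgenic glia. Its differences of 0.12 ± 0.09 and 0.19 ± 0.09 for SOD1-G93A against nontransgenic and SOD1-WT glia, and -0.08 ± 0.09 between SOD1-WT and nontransgenic glia, did not pass the test (adjusted p = 0.534, 0.203 and 0.605).

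Between SOD1-G93A and SOD1-WT glia the set differed more, with 8 probes higher and 7 lower. This was 31.2% of guidance probes against 15% of all probes tested, and by direction 16.7% higher against 6.91% and 14.6% lower against 8.13%. Under median scaling in place of quantiles the split was 5 higher and 7 lower. The groups did not overlap for 14 of the 15 probes, 6 changed by over 1.5-fold and 2, Sema3a and Robo1, by over 2-fold. Again these counts describe the called probes and were not made over all probes. By gene, 7 were higher, 6 lower and 28 did not pass the test. Higher were Sema3a, Robo1, Unc5b, Sema5a, Neo1, Plxna2 and Efna4, and lower were Efna1, Sema4g, Sema5b, Sema6d, Sema3e, Epha5 and Efna5, where Sema5b was called on its dimmer probe alone and the gene is counted by its brighter one. The median change of the kept guidance probes was 0.14 against 0.01 for all probes, and the median size of the change, whatever its sign, was 0.27 against 0.14.

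Robo1, the main slit receptor of commissural axons, measured 8.41, 8.47 and 8.36 in SOD1-G93A, 7.60, 7.41 and 7.17 in SOD1-WT and 8.65, 8.74 and 8.78 in nontransgenic glia on its brighter probe. No 2 groups overlapped. It was higher by 1.02 ± 0.11 in SOD1-G93A glia than in SOD1-WT glia (adjusted p = 1.98e-05) and lower by -1.33 ± 0.11 in SOD1-WT than in nontransgenic glia (adjusted p = 7.16e-07), with -0.31 ± 0.11 between SOD1-G93A and nontransgenic glia (adjusted p = 0.108). The dimmer probe did not follow. It stood at 4.72, 4.60 and 4.49 in SOD1-G93A, 4.77, 4.44 and 4.27 in SOD1-WT and 4.78, 4.90 and 4.51 in nontransgenic glia, was detected on 4 of the 9 arrays, and passed the test in no comparison. Robo2, a related slit receptor, and Robo4, found on endothelium, passed in none.

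Unc5b, a netrin receptor best known from vessels, measured 6.65, 6.73 and 7.11 in SOD1-G93A, 5.95, 6.37 and 6.35 in SOD1-WT and 7.24, 7.11 and 6.72 in nontransgenic glia. SOD1-WT glia were lowest, and the other groups overlapped. It was higher by 0.61 ± 0.16 in SOD1-G93A glia than in SOD1-WT glia (adjusted p = 0.0197), a call lost without SOD1-G93A replicate 3 (0.0983) or SOD1-WT replicate 1 (0.087). The gene was lower by -0.80 ± 0.16 in SOD1-WT than in nontransgenic glia (adjusted p = 0.00207). Neogenin (Neo1), the receptor of netrins and of repulsive guidance molecules, measured 9.21, 8.96 and 9.22 in SOD1-G93A, 8.66, 8.81 and 8.63 in SOD1-WT and 9.27, 9.42 and 9.30 in nontransgenic glia. SOD1-WT glia were again lowest. The change was 0.43 ± 0.11 in SOD1-G93A over SOD1-WT glia (adjusted p = 0.0129), a call lost without SOD1-G93A replicate 1 or 3 (0.062 and 0.0618), and -0.63 ± 0.11 in SOD1-WT against nontransgenic glia (adjusted p = 0.000461).

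Efna1, a lipid-anchored ephrin, measured 6.92, 6.98 and 6.73 in SOD1-G93A, 7.63, 7.63 and 7.52 in SOD1-WT and 7.36, 7.05 and 6.84 in nontransgenic glia. The SOD1-WT arrays lay above all others, and the remaining groups overlapped. The level was lower by -0.72 ± 0.13 in SOD1-G93A glia than in SOD1-WT glia (adjusted p = 0.00129) and higher by 0.51 ± 0.13 in SOD1-WT than in nontransgenic glia (adjusted p = 0.00834). Efna4, of the same class, moved the other way on both its probes, by 0.39 ± 0.12 and 0.40 ± 0.11 in SOD1-G93A over SOD1-WT glia (adjusted p = 0.0462 and 0.0186). For the first of these, the one call whose groups overlapped, the call was lost without SOD1-G93A replicate 1 or 2 (0.148 and 0.177), or SOD1-WT replicate 1 or 2 (0.13 and 0.165), or any 1 nontransgenic replicate (0.0565, 0.0648 and 0.0608). For the second it was lost without SOD1-G93A replicate 1 (0.097) or SOD1-WT replicate 3 (0.0522). Epha5, a receptor of these ephrins, was dim though detected on every array. Its means were 4.91 in SOD1-G93A, 5.31 in SOD1-WT and 4.82 in nontransgenic glia. It was lower by -0.40 ± 0.09 in SOD1-G93A glia than in SOD1-WT glia (adjusted p = 0.00598).

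Membrane semaphorins accounted for 4 further calls. Sema4g measured 4.84, 4.76 and 4.45 in SOD1-G93A, 5.58, 5.23 and 5.38 in SOD1-WT and 5.22, 4.97 and 4.93 in nontransgenic glia, and was lower by -0.71 ± 0.13 in SOD1-G93A glia than in SOD1-WT glia (adjusted p = 0.0015). Sema6d measured 6.49, 6.22 and 6.59 in SOD1-G93A, 6.81, 7.03 and 7.16 in SOD1-WT and 6.20, 6.37 and 6.22 in nontransgenic glia on its brighter probe. SOD1-WT glia were highest for both genes. Sema6d was lower by -0.57 ± 0.12 in SOD1-G93A glia than in SOD1-WT glia (adjusted p = 0.00552) and higher by 0.74 ± 0.12 in SOD1-WT than in nontransgenic glia (adjusted p = 0.000447). Its dimmer probe, at 4.59, 4.66 and 4.69 in SOD1-G93A, 4.77, 4.91 and 4.70 in SOD1-WT and 4.60, 4.87 and 4.86 in nontransgenic glia, passed in no comparison.

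Sema5a and Sema5b, semaphorins with thrombospondin repeats, ran in opposite directions. The brighter Sema5a probe stood at 6.50, 6.57 and 6.65 in SOD1-G93A, 5.90, 6.15 and 6.11 in SOD1-WT and 6.56, 6.63 and 6.50 in nontransgenic glia, higher by 0.52 ± 0.10 in SOD1-G93A glia than in SOD1-WT glia (adjusted p = 0.0025) and lower by -0.51 ± 0.10 in SOD1-WT than in nontransgenic glia (adjusted p = 0.00171). Its dimmer probe, at 4.81, 5.08 and 5.03, 4.78, 4.73 and 4.76, and 4.92, 4.86 and 4.79 in the same order of groups, passed in no comparison. SOD1-WT glia were thus lowest on the probe that passed. The dimmer Sema5b probe stood at 4.64, 4.71 and 4.76 in SOD1-G93A, 5.57, 5.20 and 5.19 in SOD1-WT and 4.53, 4.27 and 4.27 in nontransgenic glia, where no array detected it. The level was lower by -0.61 ± 0.12 in SOD1-G93A glia than in SOD1-WT glia (adjusted p = 0.00284) and at least 1.63-fold higher in SOD1-WT than in nontransgenic glia (adjusted p = 3.68e-05). The brighter Sema5b probe, at 5.67, 5.69 and 5.69 in SOD1-G93A, 5.71, 6.10 and 6.09 in SOD1-WT and 5.69, 5.52 and 5.54 in nontransgenic glia, was higher by 0.38 ± 0.11 in SOD1-WT than in nontransgenic glia (adjusted p = 0.0245), and stood at -0.28 ± 0.11 between SOD1-G93A and SOD1-WT glia (adjusted p = 0.13). That one call of the brighter probe was lost without SOD1-WT replicate 2 or 3 (0.0944 and 0.0713) or nontransgenic replicate 2 or 3 (0.0863 and 0.0741).

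**Figure D4:**
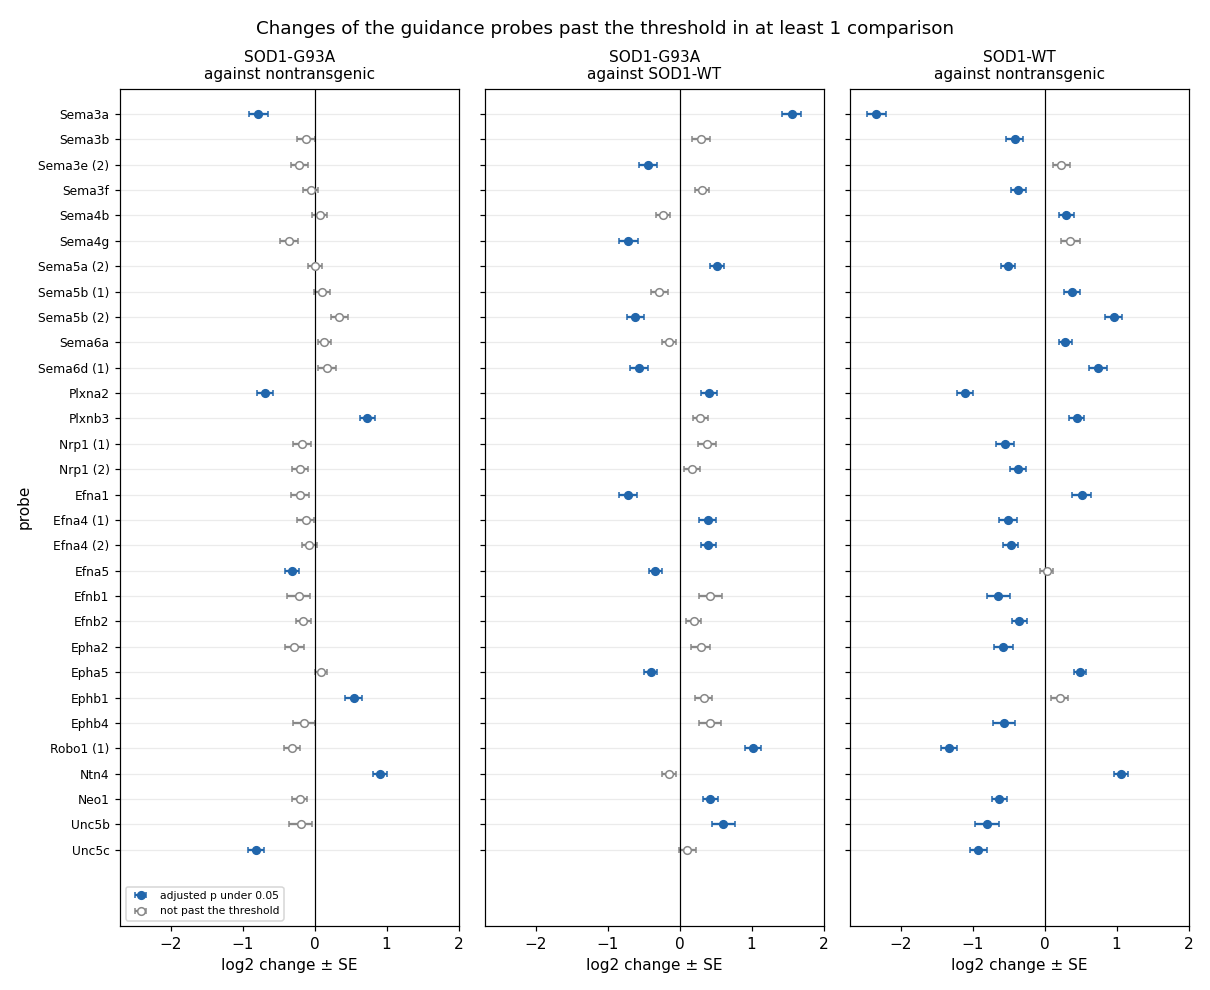
Log2 change with its standard error (x axis) of the 30 guidance probes past the threshold in at least 1 comparison (rows), for SOD1-G93A against nontransgenic glia, SOD1-G93A against SOD1-WT glia and SOD1-WT against nontransgenic glia. Filled points have an adjusted p under 0.05 (7, 15 and 26 probes) and open points do not. The Sema3a change of -2.34 between SOD1-WT and nontransgenic glia is the farthest from 0 in the plot.

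The widest shift of the set was between SOD1-WT and nontransgenic glia, with 9 probes higher and 17 lower. This was 54.2% of guidance probes against 25.3% of all probes tested. The higher calls were 18.8% of guidance probes against 13.5% of all, and the lower calls 35.4% against 11.8%. The groups did not overlap for any of the 26, 10 changed by over 1.5-fold and 4, Sema3a, Robo1, Plxna2 and Ntn4, by over 2-fold. Here too the counts describe the called probes and were not made over all probes. By gene, 8 were higher, 15 lower and 18 did not pass the test. The comparison shares the SOD1-WT arrays with the one above, so the pairs of values given for each gene are not independent. The median size of the change was 0.36 for guidance probes against 0.18 for all probes, and the median signed change -0.02 against 0.00.

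By role, the lower calls in SOD1-WT glia took in some secreted repellents and some parts of their receptors, beside 11.8% of all probes lower. The secreted repellents Slit2 and Sema3e did not pass in this comparison. Of 6 class 3 semaphorin probes 3 (Sema3a, Sema3b and Sema3f) were lower and 3 did not pass. None was higher, also at an unadjusted p under 0.05. The neuropilin Nrp1, which binds Sema3a, was lower on both its probes, by -0.55 ± 0.13 and -0.37 ± 0.11 (adjusted p = 0.0049 and 0.0274), and Plxna2 was lower as given above. The second Nrp1 call was lost without SOD1-WT replicate 1, 2 or 3 (0.0501, 0.0629 and 0.0525) or nontransgenic replicate 2 or 3 (0.0777 and 0.124). Sema3b, at -0.41 ± 0.12 (adjusted p = 0.0196), lost its call without SOD1-WT replicate 3 (0.0625) or nontransgenic replicate 1 or 2 (0.0933 and 0.063). All 3 measured netrin receptors, Neo1, Unc5b and Unc5c, were lower, while Ntn4, the netrin of the set with a kept probe, was higher. The related netrin Ntn3, outside the set, was lower, as given with the pathway lists below.

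Of the ephrins Efnb1, Efnb2 and Efna4 were lower, the last on both probes (-0.51 ± 0.12 and -0.47 ± 0.11, adjusted p = 0.0064 and 0.00407), and Efna1 was higher. Efnb2, an ephrin of arteries, changed by -0.35 ± 0.11 (adjusted p = 0.0245), and its receptor Ephb4, known from veins, by -0.57 ± 0.15 (adjusted p = 0.0131). The Efnb2 call was lost without SOD1-WT replicate 3 (0.0774) or nontransgenic replicate 1 or 3 (0.0515 and 0.0933), and the Ephb4 call without SOD1-WT replicate 2 (0.0602) or nontransgenic replicate 1 (0.0631). Among the other Eph receptors Epha2 was lower by -0.58 ± 0.13 (adjusted p = 0.00495) and Epha5 higher by 0.49 ± 0.09 (adjusted p = 0.00083). Endothelial and mural markers were lower in sum on the SOD1-WT arrays, with 2 of the 5 lower and 1 higher than in nontransgenic glia, as given above. Their part in these results was not tested.

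Of 11 membrane semaphorin probes, 5 were higher in SOD1-WT than in nontransgenic glia (Sema4b, both Sema5b probes, Sema6a and Sema6d), 1 was lower (Sema5a) and 5 did not pass the threshold, beside 13.5% of all probes higher and 11.8% lower. Sema6a, at 0.29 ± 0.09 (adjusted p = 0.0356), lost its call without SOD1-WT replicate 1 (0.111) or nontransgenic replicate 1, 2 or 3 (0.0914, 0.0922 and 0.0667). Sema4b, at 0.30 ± 0.10 (adjusted p = 0.0467), lost its call whichever of the 9 arrays was left out, with adjusted p between 0.0568 and 0.174. Both calls are therefore weakly held.

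The remaining 14 genes, 1 probe each, passed the test in no comparison: Sema3c, Sema4a, Sema4d, Plxnb1, Plxnc1, Plxnd1, Epha4, Ephb6, Slit2, Robo2, Robo4, Slitrk2, Slitrk4 and Slitrk6. Their changes ranged from -0.11 to 0.41 over the 3 comparisons, and the lowest adjusted p was 0.0659. A ligand and receptor pair is among them, Sema4d and Plxnb1. Sema3c had the widest spread within a group of any guidance probe, at 7.02, 6.57 and 5.99 on the SOD1-WT arrays.

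Other genes of the guidance pathway were read from lists of textbook members. Their counts stand beside 10.6% of all probes past the threshold in SOD1-G93A against nontransgenic glia, 15% in SOD1-G93A against SOD1-WT glia and 25.3% in SOD1-WT against nontransgenic glia. Of 7 measured netrin-family and repulsive guidance relatives, 0 rose, 1 fell and 6 did not pass in SOD1-G93A against nontransgenic glia, 3, 1 and 3 in SOD1-G93A against SOD1-WT glia, and 2, 4 and 1 in SOD1-WT against nontransgenic glia. Their median changes were -0.21, -0.09 and -0.38 in these comparisons, against 0.01, 0.01 and 0.00 over all probes tested. At an unadjusted p under 0.05, 1 would have risen and 1 fallen in SOD1-G93A against nontransgenic glia. Rgmb, a ligand of neogenin and helper of bone morphogenetic protein signalling, averaged 4.65 ± 0.09 in SOD1-G93A, 4.83 ± 0.08 in SOD1-WT and 5.62 ± 0.11 in nontransgenic glia (SD, n = 3 each). It was detected on 1 of 3 SOD1-G93A arrays and on all 3 of each other group. It was lower than in nontransgenic glia by -0.97 ± 0.10 in SOD1-G93A and by -0.78 ± 0.10 in SOD1-WT glia (adjusted p = 1.82e-05 and 4.08e-05). Flrt3 and Flrt2, whose shed ectodomains can repel axons that carry Unc5 receptors, were higher by 0.68 ± 0.13 and 0.46 ± 0.11 in SOD1-G93A glia than in SOD1-WT glia (adjusted p = 0.00189 and 0.014) and lower by -0.92 ± 0.13 and -0.67 ± 0.11 in SOD1-WT than in nontransgenic glia (adjusted p = 9.1e-05 and 0.000544). Both had their lowest mean in SOD1-WT glia, where Flrt3 was detected on 2 of 3 arrays. The Flrt2 call between SOD1-G93A and SOD1-WT glia was lost without SOD1-G93A replicate 2 or 3 (0.0617 and 0.0543).

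The membrane-bound netrin-G1 (Ntng1) was lower by -0.39 ± 0.11 in SOD1-G93A glia than in SOD1-WT glia (adjusted p = 0.0346) and higher by 0.72 ± 0.11 in SOD1-WT than in nontransgenic glia (adjusted p = 0.000315). The first of these was lost without SOD1-G93A replicate 1, 2 or 3 (0.0907, 0.117 and 0.0661) or SOD1-WT replicate 2 or 3 (0.0605 and 0.107). The secreted netrin Ntn3 was higher by 0.33 ± 0.10 in SOD1-G93A glia than in SOD1-WT glia (adjusted p = 0.0429). It lost that call without any 1 SOD1-G93A replicate (0.112, 0.0579 and 0.153), any 1 SOD1-WT replicate (0.0646, 0.132 and 0.056) or nontransgenic replicate 1 or 2 (0.0504 and 0.0533), and its other probe passed in no comparison. Between SOD1-WT and nontransgenic glia, a value chosen after it was seen, Ntn3 was lower by -0.38 ± 0.10 (adjusted p = 0.0139), a call lost without SOD1-WT replicate 2 (0.0545) or nontransgenic replicate 3 (0.0682).

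Of 32 measured intracellular effectors, 0 rose, 1 fell and 31 did not pass in SOD1-G93A against nontransgenic glia, 5, 4 and 23 in SOD1-G93A against SOD1-WT glia, and 5, 5 and 22 in SOD1-WT against nontransgenic glia (10.6%, 15% and 25.3% of all probes), with median changes of -0.02, 0.03 and 0.01. At an unadjusted p under 0.05, 5 would have risen and 4 fallen in SOD1-G93A against nontransgenic glia. Tiam1, an exchange factor that activates Rac, was lower than in nontransgenic glia by -0.73 ± 0.14 in SOD1-G93A and by -0.80 ± 0.14 in SOD1-WT glia (adjusted p = 0.00317 and 0.000593). Dpysl3 and Crmp1, of the family that relays Sema3a signals to the cytoskeleton, were higher by 0.68 ± 0.11 and 0.53 ± 0.13 in SOD1-G93A glia than in SOD1-WT glia (adjusted p = 0.000595 and 0.0102), Crmp1 being detected on 2 of 3 SOD1-WT arrays. Dpysl3 was lower by -1.02 ± 0.11 in SOD1-WT than in nontransgenic glia (adjusted p = 7.74e-06). Its value between SOD1-G93A and nontransgenic glia, -0.34 ± 0.11, did not pass (adjusted p = 0.0666). Ngef, an exchange factor bound by EphA receptors, was lower by -0.91 ± 0.12 in SOD1-G93A glia than in SOD1-WT glia (adjusted p = 7.36e-05). Ngef was also higher by 0.57 in SOD1-WT than in nontransgenic glia (adjusted p = 0.0022), and it did not pass between SOD1-G93A and nontransgenic glia. Farp1, an exchange factor that binds plexins, was higher by 0.40 ± 0.10 in SOD1-G93A glia than in SOD1-WT glia (adjusted p = 0.0105), a call lost without SOD1-G93A replicate 3 (0.0543). In SOD1-WT against nontransgenic glia Enah, an actin regulator, was higher by 0.61 ± 0.09 on its brighter probe only and Limk1, the kinase of cofilin, was lower by -0.59 ± 0.10 (adjusted p = 0.000222 and 0.000601).

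Of 13 measured co-receptors and sheddases, 0 rose, 1 fell and 12 did not pass in SOD1-G93A against nontransgenic glia, 3, 1 and 9 in SOD1-G93A against SOD1-WT glia, and 0, 3 and 10 in SOD1-WT against nontransgenic glia (10.6%, 15% and 25.3% of all probes), with median changes of -0.07, 0.14 and -0.06. At an unadjusted p under 0.05, 2 would have risen and 2 fallen in SOD1-G93A against nontransgenic glia, and 0 risen and 4 fallen in SOD1-WT against nontransgenic glia. The heparan sulphate proteoglycan Sdc4 averaged 9.11 ± 0.31 in SOD1-G93A, 10.43 ± 0.12 in SOD1-WT and 10.34 ± 0.15 in nontransgenic glia (SD, n = 3 each). It was lower in SOD1-G93A glia by -1.22 ± 0.14 against nontransgenic and by -1.31 ± 0.14 against SOD1-WT glia (adjusted p = 5.52e-05 and 1.6e-05). Both controls thus lay above the mutant for Sdc4. The related Sdc3 was higher by 0.52 ± 0.12 in SOD1-G93A glia than in SOD1-WT glia and lower by -0.48 ± 0.12 in SOD1-WT than in nontransgenic glia (adjusted p = 0.0101 and 0.0108), the second call lost without nontransgenic replicate 3 (0.0567).

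The adhesion molecule Nrcam was lower by -0.42 ± 0.09 in SOD1-WT than in nontransgenic glia (adjusted p = 0.00383) and higher by 0.29 ± 0.09 in SOD1-G93A glia than in SOD1-WT glia (adjusted p = 0.0488). The second was lost without any 1 of 8 arrays, SOD1-G93A replicate 3 being the exception (adjusted p between 0.0591 and 0.178). Cntn1, a lipid-anchored adhesion molecule, was higher by 0.37 ± 0.11 in SOD1-G93A glia than in SOD1-WT glia (adjusted p = 0.0352), a call lost without SOD1-G93A replicate 1, 2 or 3 (0.0629, 0.127 and 0.0864) or SOD1-WT replicate 2 or 3 (0.102 and 0.0854). The protease Adam17 was lower by -0.35 ± 0.11 in SOD1-WT than in nontransgenic glia (adjusted p = 0.0291), a call lost without SOD1-WT replicate 2 (0.104) or nontransgenic replicate 2 or 3 (0.089 and 0.113). None of 6 measured myelin-type growth inhibitors and receptors, and none of 6 measured matrix inhibitors of axon growth and receptors, passed limma's test in any comparison. At an unadjusted p under 0.05, 1 gene of each list would have fallen in SOD1-G93A against SOD1-WT glia and 1 of the matrix list would have risen in SOD1-WT against nontransgenic glia.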

How the data were processed

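The members and gene lists were chosen with earlier results of these data known. Per the labels' protocols and the series design text, RNA from confluent glia was amplified with the Illumina TotalPrep kit and read on bead arrays, and per the submitters' processing notes BeadStudio was used, its version not stated. The deposited raw table holds, per the file headers, mean bead intensity, bead number, standard error and detection p-value on each array for 24613 probes, and the values show no background subtraction or scaling. In another deposited table the authors' normalised intensity is a straight line of the raw one on each array, brought to a common mean of 204.3. It served as an alternative, as log2 after 11.1 had been added.

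Raw intensities were corrected by neqc (limma 3.58.1, R 4.3.3, with data.table at version 1.17.8), with background inferred from the detection p-values, an offset of 16, quantile scaling and log2. The 13972 probes kept entered 1 limma fit of all 9 arrays and 3 groups (6 residual and 7.52 prior degrees of freedom). The two-sided moderated test was adjusted by Benjamini-Hochberg over kept probes within each comparison, with a threshold of 0.05. The fit was also run on simulated data, with independent noise for each probe and shifts planted only in the SOD1-G93A arrays. That simulation held no differences in cell makeup or sex and adds no support to the calls. Symbols come from the platform annotation, which gave 20984 probes 1 symbol, 1 probe several and 3628 none, and no member symbol changed when matched to a mouse gene table for GRCm38.p6. For a probe not detected on any array of the dimmer group, "at least N-fold" is the bright group's mean over the mean of, per array, the higher of the lowest detected signal and the probe's own. No interval or floor is given, since the number of arrays limits the precision.

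Values on every array were given for members past the threshold with at least a 1.5-fold change in a comparison they pass, for a set of known repellents and Epha4 whether or not they pass, and for each probe of a gene whose probes differ in call. Pathway lists name up to 4 members per comparison with the smallest p. In counts a gene is represented by whichever of its kept probes had the highest mean.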

Additional observations from a re-analysis of the deposited data

How the results depend on the processing

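Of the guidance calls, 6 of 7 held under every alternative that tested them in SOD1-G93A against nontransgenic glia, 8 of 15 in SOD1-G93A against SOD1-WT glia and 17 of 26 in SOD1-WT against nontransgenic glia, and no call changed sign. A filter for detection on all 9 arrays left Sema4g, the dimmer Sema5b probe and Epha2 untested, so that 5 guidance probes were lower in SOD1-G93A glia than in SOD1-WT glia there instead of 7. The alternatives were no background correction, an offset of 50, the authors' normalised table, median scaling, other filters on dim probes, a variance trend with robust prior, array weights, fits of only the 2 groups compared, the replicate number as a block, and leaving out each array. Median scaling gave 5 guidance probes higher in SOD1-G93A than SOD1-WT glia instead of 8, and the calls of Plxna2 (adjusted p = 0.0765), Neo1 (0.0503) and the first Efna4 probe (0.117) were lost. Under the same scaling Efna5 (0.0679) lost its call in SOD1-G93A against nontransgenic glia, and Efnb2 (0.0644), the second Nrp1 probe (0.0754), Sema4b (0.0846) and Sema6a (0.066) theirs in SOD1-WT against nontransgenic glia. Leaving out 1 array gave 5 to 8 guidance probes higher in SOD1-G93A glia than in SOD1-WT glia, with 5 when SOD1-G93A replicate 1, SOD1-G93A replicate 3 or SOD1-WT replicate 1 was absent. The cause was not tested. The other counts stayed within 1.5 times of their value. With no filter, where more probes are tested, Efnb1 (adjusted p = 0.0516) and Ephb4 (0.0615) lost their calls in SOD1-WT against nontransgenic glia, and Unc5b (0.0954), the first Efna4 probe (0.0994), Sema3e (0.0578) and, of the pathway lists, Cntn1 (0.0539) and Ntng1 (0.0658) theirs in SOD1-G93A against SOD1-WT glia. Sema3f passed the test between SOD1-G93A and SOD1-WT glia without background correction (0.0483) or with an offset of 50 (0.0379). Under these settings Sema6a lost its call in SOD1-WT against nontransgenic glia (0.0718 and 0.108). The offset of 50 also lost the first Efna4 call between SOD1-G93A and SOD1-WT glia (0.0616). The authors' table lost Efna5 (0.0618) in SOD1-G93A against nontransgenic glia. In SOD1-WT against nontransgenic glia it lost Sema4b (0.0513), the second Nrp1 probe (0.0547) and Efnb2 (0.0737). Not every loss is listed.

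Some values that did not pass turned sign. In SOD1-G93A against nontransgenic glia, over all the alternatives that tested it, the dimmer Sema3e probe ranged from -0.0703 to 0.0102 (the positive value without nontransgenic replicate 1). Sema3f ranged from -0.13 to 0.0113 there (the positive value without SOD1-G93A replicate 2). Over the alternatives Efna5 in SOD1-WT against nontransgenic glia ranged from -0.0357 (without nontransgenic replicate 1) to 0.0626. Slit2 in SOD1-G93A against SOD1-WT glia was -0.0035 under median scaling.

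Groups share replicate numbers in the labels. Same-numbered arrays deviated together at r = -0.02 to 0.15 over 9 pairs, with 3 pairs over 0.1. Arrays of different number and group did so at -0.20 to 0.19. With 3 arrays a group, these values cannot settle whether the numbers pair the samples. With the replicate block, 3 guidance probes were higher and 3 lower in SOD1-G93A than nontransgenic glia, 10 and 7 in SOD1-G93A against SOD1-WT glia, and 10 and 17 in SOD1-WT against nontransgenic glia. Over all kept probes the block gave 1526, 2189 and 3633 calls in these comparisons, against 1487, 2102 and 3539 without it. Only probes called in the main fit, the known repellents and Epha4 were followed by name. Among these, the block took away the call of Efna5 (adjusted p = 0.0584) in SOD1-G93A against nontransgenic glia. Between SOD1-G93A and SOD1-WT glia it took away those of the first Efna4 probe (0.061) and Nrcam (0.0596), and Efnb1 (0.0401) gained one. Other probes that gained a call with the block are in its counts but are not named. A fit with the BeadChip as a block was not run, since the headers name none. Dim probes near background are limited in precision, and changes of low signals are understated by the offset.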
